A study of Homo sapiens with 8 samples.

Results

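The integrins that bind collagen or the RGD peptide of matrix proteins were followed through 10 genes: ITGA2, ITGA1, ITGA10, ITGB1, ITGA5, ITGAV, ITGB3, ITGB5, ITGB6 and ITGB8. They were chosen by gene symbol, starting from ITGA2, which had been picked because its level was higher after ΔNp63α induction, and every probe that the platform annotation gave to these symbols was taken. This gave 10 of the 20042 named genes and 17 of the 47304 probes on the array. Of these, 12 probes of 8 genes lay above background on both arrays of at least 1 group and were analysed further, among 23086 such probes in all. The other 5 probes included the single probes of ITGB6 and ITGB8.

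The cells were SUM159 trailblazers, an invasive subpopulation of a human triple-negative breast cancer line, and every group carried a doxycycline-inducible pLIX vector for the 5 days of the experiment. The 4 groups, with 2 bead arrays each, were cells with the ΔNP63α-V5 vector and 1 ug/ml doxycycline (induced ΔNp63α cells), the same line without it (uninduced ΔNp63α cells), cells with the empty vector and 1 ug/ml doxycycline, and empty-vector cells without it. ΔNp63α, here V5-tagged, is the p63 isoform that lacks the N-terminal transactivation domain and the main form of this transcription factor in basal epithelium. Nothing in the labels tells whether replicates came from separate cultures, and the spread behind each p-value may therefore be technical. No probe was named TP63 (0 probes), so induction itself could not be read from these arrays.

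Values are deposited intensities (linear, as the authors supplied them), and a probe counts as above background over 114.4. Spearman correlations over the 23086 probes were 0.970 to 0.975 within groups and 0.954 to 0.975 across groups. Of the markers of a mesenchymal-type line, VIM (12611.0 to 17134.8), CDH2 (1925.6 to 2988.3) and SPARC (545.9 to 960.9) were above background on all arrays, and ZEB1 (111.3 to 133.5) on some. EPCAM, CDH1, ESR1 and KRT19 passed the background filter in no group, whereas KRT18 did (266.5 to 420.5). Of the blood and endothelial markers PTPRC, CD3D, PECAM1, CDH5 and VWF passed in no group, and CD14 read 120.1 to 142.9.

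Integrins are heterodimers of an α and a β subunit that tie the extracellular matrix to the actin cytoskeleton. ITGA2, ITGA1 and ITGA10 encode the collagen-binding subunits α2, α1 and α10, each of which pairs only with β1 (ITGB1) and carries an inserted domain that docks onto the collagen triple helix. ITGA5 (α5) also pairs with β1 and forms the classical fibronectin receptor, while ITGAV (αv) pairs with β1, β3, β5, β6 or β8 and reads the RGD motif of fibronectin, vitronectin and the latency peptide of TGF-β. In stratified and mammary epithelium α2β1 is found on basal cells, the compartment in which ΔNp63α is expressed.

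ITGA2 and ITGA1 lie near each other on the long arm of chromosome 5. In the RefSeq annotation PELO starts at the same base as ITGA1 and lies within its span, so the stretch before ITGA1 is also that before PELO. Their upstream regions are shown because these genes gave the highest and the lowest difference among the 12 probes in the ΔNp63α line. The 250 bases before the RefSeq start of ITGA2 are chr5:52989102-52989351 and those of ITGA1 chr5:52787666-52787915, both on the plus strand of GRCh38.p14 and printed 5′ to 3′, with every GC box (GGGCGG, on either strand) in capitals.
ITGA2: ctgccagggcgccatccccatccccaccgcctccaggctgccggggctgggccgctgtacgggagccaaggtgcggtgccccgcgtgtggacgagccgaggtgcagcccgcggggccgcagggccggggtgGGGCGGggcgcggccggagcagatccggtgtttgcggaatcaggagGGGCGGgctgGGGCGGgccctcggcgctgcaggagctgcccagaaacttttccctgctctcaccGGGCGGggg
ITGA1: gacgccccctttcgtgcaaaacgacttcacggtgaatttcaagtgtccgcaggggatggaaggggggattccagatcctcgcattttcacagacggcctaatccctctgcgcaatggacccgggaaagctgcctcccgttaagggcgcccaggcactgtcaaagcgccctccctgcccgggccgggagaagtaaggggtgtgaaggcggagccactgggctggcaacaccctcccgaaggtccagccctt
The ITGA2 stretch had 76.4% G and C and 4 GC boxes, and the ITGA1 stretch had 62.0% and 0. A GC box was present in 42.6% of 35116 RefSeq promoters of this length. Neither stretch held an AP-1 site (TGANTCA, in 6.57% of promoters) or the p53-family decamer, the unit that p53, p63 and p73 recognise (in 5.57%), on either strand. The RefSeq table held 13 such regions for 9 of the genes, and in all 13 both motifs were missing (0 sites), while ITGB3 was not matched. A match or its absence in these windows describes the letters alone.

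Among the collagen receptors, ITGA2 had the largest reading of induction. The ITGA2 probe (ILMN_1665792) read 1707.7 and 1483.2 in induced ΔNp63α cells, 399.4 and 497.1 in uninduced ΔNp63α cells, 508.5 and 503.2 in empty-vector cells with doxycycline and 545.2 and 539.8 in empty-vector cells without it. Both induced arrays stood far above the other 6, which lay within a narrow band. The mean on the log2 scale, after background correction and addition of an offset of 50, was 10.59 ± 0.15 in induced and 8.65 ± 0.25 in uninduced ΔNp63α cells (SD, n = 2), a log2 difference of 1.95 ± 0.13 (SE) or 3.86-fold. This value chose the gene, so it is a description and carries no test, and the same holds for every reading of this comparison for the other integrins here. The array measures RNA of the whole culture, in which more cells with a transcript and more transcript per cell cannot be told apart.

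ITGA1, whose product α1β1 prefers basement membrane collagen, went the other way at a far lower signal. Its probe (ILMN_1802411) read 122.7 and 117.0 in induced ΔNp63α cells, 135.2 and 143.9 in uninduced ΔNp63α cells, 126.8 and 127.7 in empty-vector cells with doxycycline and 119.6 and 122.6 in empty-vector cells without it. The induced arrays lay below the uninduced ones without overlap, at a log2 difference of -0.34 ± 0.10 (SE), but all 8 readings were close to the background level of 114.4. The size depended on how background was treated, at -0.22 without background correction and -0.56 with an offset of 16.

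ITGA10, which encodes the α10 subunit known from cartilage, read 1095.7 and 1131.2 in induced ΔNp63α cells and 1119.0 and 1237.5 in uninduced ΔNp63α cells (ILMN_1700144). In empty-vector cells it read 1096.2 and 989.3 with doxycycline and 944.6 and 1150.9 without. All 4 groups came close to one another, and the induced arrays overlapped the uninduced ones (-0.08 ± 0.12, SE). PELO, which lies within the ITGA1 locus, did not pass with induction (0.12 ± 0.11, SE, limma adjusted p = 0.770). MOCS2, the next protein-coding gene beyond ITGA2, read 0.18 ± 0.12 (limma adjusted p = 0.655).

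ITGB1, which encodes the shared partner β1, gave smaller readings than ITGA2 on each of its 3 passing probes. The brightest ITGB1 probe (ILMN_1723467) read 6695.9 and 6438.7 in induced ΔNp63α cells, 6170.0 and 6516.3 in uninduced ΔNp63α cells, 6853.9 and 7091.6 in empty-vector cells with doxycycline and 7229.3 and 6278.5 in empty-vector cells without it. Its groups overlapped, with a log2 difference of 0.05 ± 0.10 (SE) between induced and uninduced cells, against 1.95 ± 0.13 for ITGA2. A further probe (ILMN_1714820) read 2054.4 and 1867.3 in induced cells and 1731.3 and 1436.4 in uninduced cells, without overlap (0.32 ± 0.18). On that probe the arrays of replicate 1 exceeded those of replicate 2 in all 4 groups, and the empty-vector arrays spread from 1442.4 to 2174.6, which covers the ΔNp63α arrays apart from the reading of 1436.4. The dimmest ITGB1 probe that passed (ILMN_1784454) stayed between 104.1 and 123.6, around the background level, and the remaining probe read 101.7 to 107.1.

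**Figure D1:**
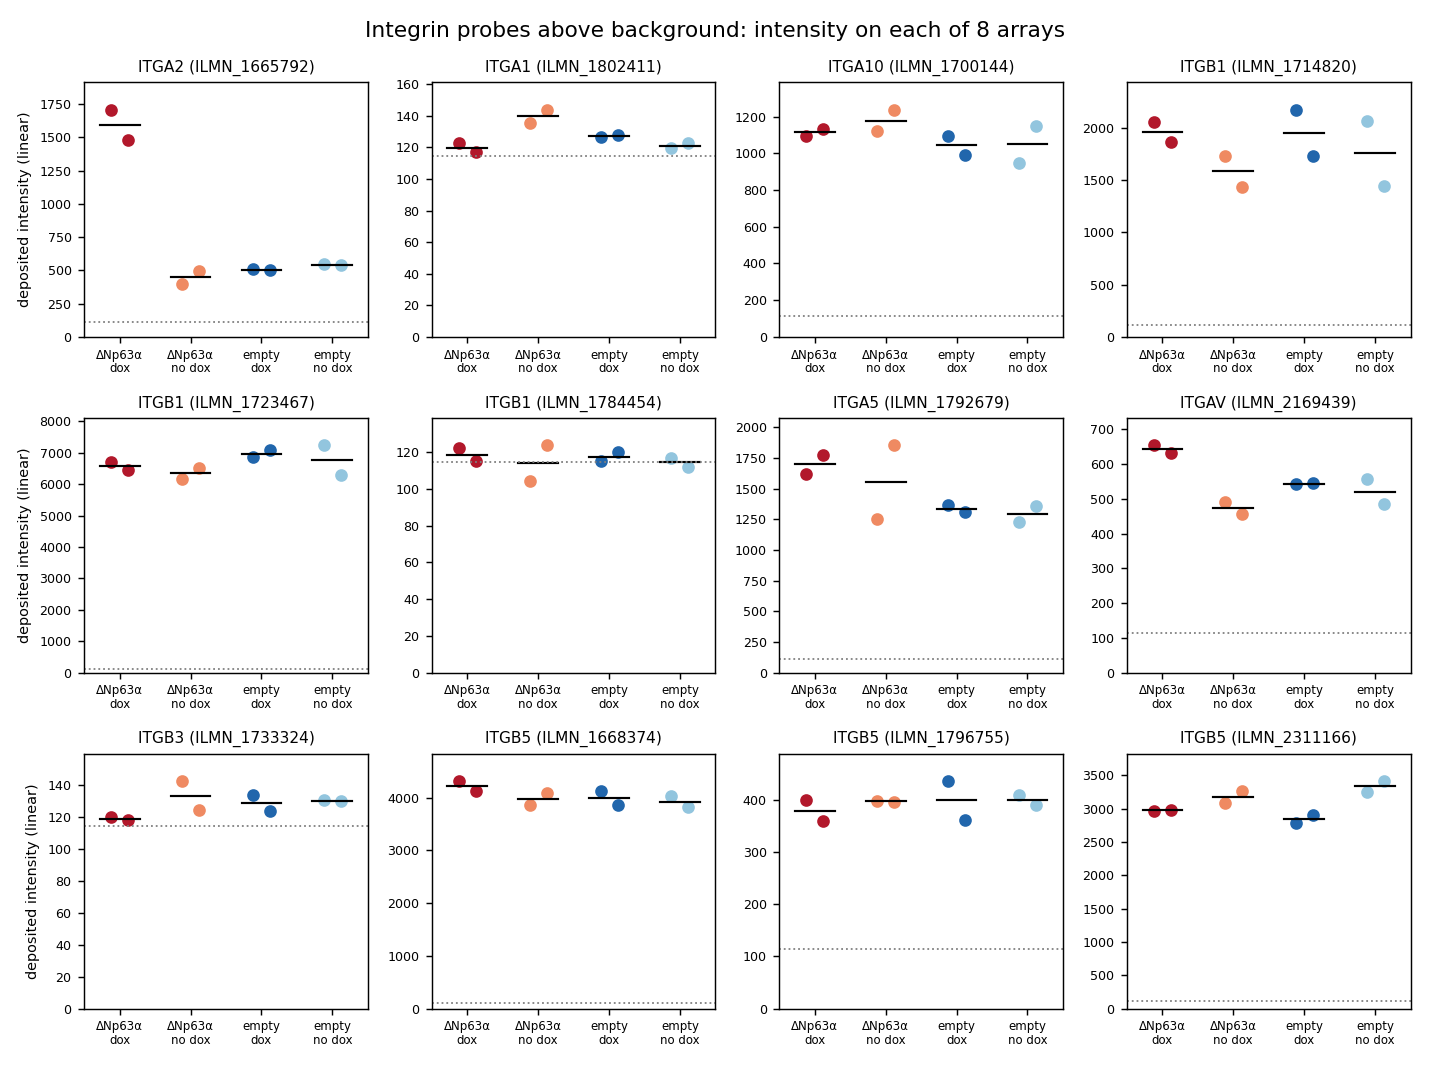
Deposited intensity (linear scale) of each integrin probe above background on the 8 arrays, with points for arrays, short bars for group means and a dotted line at the background level of 114.4. The induced ΔNp63α arrays of ITGA2 sit at 1707.7 and 1483.2, above every other array, whereas ITGA1, ITGB3 and the dimmest ITGB1 probe stay close to the dotted line.

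Of the RGD-binding α subunits, ITGAV separated the induced from the uninduced arrays and ITGA5 did not. ITGAV (ILMN_2169439) read 653.9 and 630.9 in induced ΔNp63α cells, 491.2 and 456.6 in uninduced ΔNp63α cells, 542.2 and 545.8 in empty-vector cells with doxycycline and 557.9 and 484.9 in empty-vector cells without it. The induced arrays were the highest of the 8 and the log2 difference was 0.48 ± 0.11 (SE), or 1.39-fold, well under that of ITGA2. Against empty-vector cells with doxycycline the same arrays gave 0.26 ± 0.11 (SE).

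ITGA5 (ILMN_1792679) read 1623.0 and 1776.1 in induced ΔNp63α cells, but the uninduced ΔNp63α arrays were far apart at 1254.3 and 1852.1. In empty-vector cells it read 1367.0 and 1306.0 with doxycycline and 1226.2 and 1358.1 without. The difference in the ΔNp63α line was 0.16 ± 0.16 (SE), and it was -0.13 without uninduced ΔNp63α replicate 1 and 0.45 without replicate 2, so it takes its sign from a single array. With doxycycline in both lines, the ΔNp63α arrays lay above the empty-vector arrays by 0.36 ± 0.16.

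The RGD-binding β subunits gave small readings or lay at background. ITGB5, whose product αvβ5 binds vitronectin, was bright on 2 probes and gave readings of opposite sign. ILMN_1668374 read 4312.4 and 4120.6 in induced ΔNp63α cells and 3862.5 and 4095.6 in uninduced ΔNp63α cells (0.09 ± 0.10, SE). ILMN_2311166 read 2962.9 and 2986.3 in induced and 3087.6 and 3269.8 in uninduced cells (-0.10 ± 0.09), and the third passing probe gave -0.08 ± 0.12. Each of the 3 differences was smaller than its SE or about equal to it.

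ITGB3, the β subunit of the vitronectin receptor αvβ3, read 119.9 and 117.7 in induced ΔNp63α cells, 142.2 and 124.1 in uninduced ΔNp63α cells, 133.4 and 123.4 in empty-vector cells with doxycycline and 130.4 and 129.8 in empty-vector cells without it. The induced arrays were the lowest of the 8 (-0.25 ± 0.12, SE), at a signal just over background, and the reading was -0.10 without uninduced ΔNp63α replicate 1, -0.40 without replicate 2, -0.16 without background correction and -0.42 with an offset of 16. The αv partners β6, which is typical of wounded and invasive epithelium, and β8, both known to activate latent TGF-β, were not detected. ITGB6 read 94.7 to 109.5 and ITGB8 101.3 to 107.2 over the 8 arrays, all below 114.4. The 2 ITGB5 probes that did not pass read 94.9 to 113.9. A change short of background cannot be seen on these arrays.

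Over the 12 probes, 4 were higher on both induced than on both uninduced ΔNp63α arrays and 3 were lower on both, with a median log2 difference of 0.07 against 0.00 for all 23086 probes. Such separation was found in 19.8% of all probes in the higher and 20.7% in the lower direction. The members were picked from this comparison, so nothing is read from their count.

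Doxycycline alone was tested in the empty-vector line, on arrays that took no part in the choice of ITGA2. limma called 0 of the 12 integrin probes and 0% of all 23086 probes at an adjusted p under 0.05, and 1 of the 12 and 1020 of all probes had an unadjusted p under 0.05. ITGA2 read 508.5 and 503.2 with doxycycline and 545.2 and 539.8 without it, a difference of -0.11 ± 0.13 (SE; limma 95% interval -0.39 to 0.17, adjusted p = 0.986). ITGA1 ran slightly upward at 0.11 ± 0.10 (limma adjusted p = 0.986) and ITGAV read 0.07 ± 0.11 (limma adjusted p = 0.991). The probe with the unadjusted p was ITGB5 ILMN_2311166, which read 2781.6 and 2912.0 with doxycycline and 3255.6 and 3410.8 without it (-0.23 ± 0.09, SE, limma adjusted p = 0.986). The arrays of that probe did not overlap, but 17.6% of all probes separated downward in this comparison and 16.9% upward, and of the 12 integrin probes 2 and 1 did.

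The uninduced ΔNp63α line was also set against the empty-vector line, which asks whether the integrins differed before induction. The uninduced ΔNp63α arrays serve in this comparison and in that of induction, so the comparisons are not independent. limma called 0 of the 12 integrin probes, against 0.0260% of all probes, and 2 of the 12 had an unadjusted p under 0.05, as did 8.87% of all probes. ITGA1 gave the smallest p, with 135.2 and 143.9 in uninduced ΔNp63α cells and 119.6 and 122.6 in empty-vector cells (0.31 ± 0.10, SE, limma 95% interval 0.09 to 0.53, adjusted p = 0.390). ITGA2 followed, with 399.4 and 497.1 in uninduced ΔNp63α cells and 545.2 and 539.8 in empty-vector cells (-0.31 ± 0.13, limma 95% interval -0.59 to -0.04, adjusted p = 0.506). Both sets of arrays were separate, which makes 1 of the 12 probes upward and 1 downward, where 21.5% and 19.2% of all probes separated in those directions. These readings run opposite to those of induction for both genes, so with doxycycline in both lines the ΔNp63α cells differed from the empty vector by 1.75 ± 0.13 for ITGA2 and by -0.14 ± 0.10 for ITGA1 (SE).

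**Figure D2:**
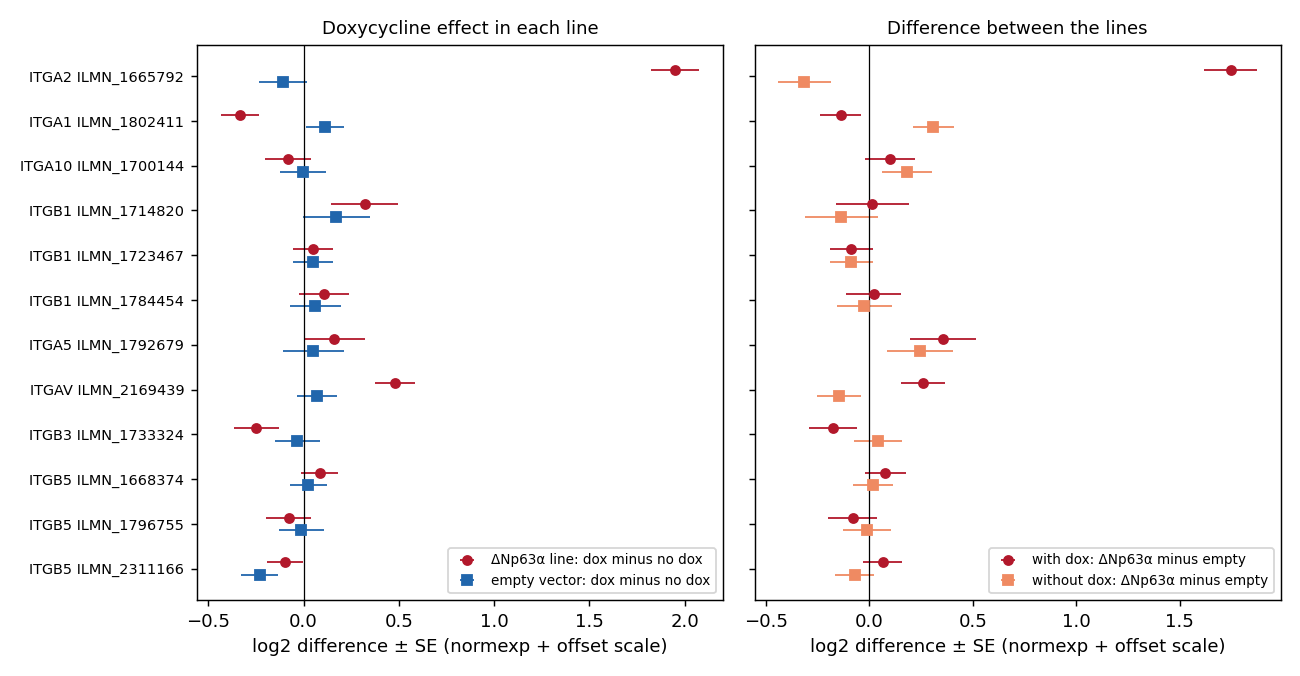
Log2 difference ± SE of the 12 integrin probes: on the left for doxycycline in the ΔNp63α line (circles) and the empty-vector line (squares), on the right between the lines with (circles) and without doxycycline (squares). ITGA2 stands alone at 1.95 on the left and 1.75 on the right, and ITGAV comes next on the left at 0.48.

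The other integrin subunits, fixed as a list of 16 genes with earlier results of these data known, had 10 members above background. Under induction 3 rose, 1 fell and 6 did not pass at a limma adjusted p under 0.05, where 2.23% of the 12385 genes measured passed (1.19% higher and 1.03% lower). The list median was 0.00 on the log2 scale and that of all genes -0.01. The 3 that rose were ITGB4 (1.83 ± 0.11, SE, limma adjusted p = 1.574e-05), ITGA3 (1.09 ± 0.13, adjusted p = 0.0021) and ITGA6 (0.66 ± 0.11, adjusted p = 0.0106). ITGB4, ITGA3 and ITGA6 encode subunits of laminin receptors, as do ITGB1 and ITGA7. ITGB1, described above and not tested, gave 0.05 to 0.32 on its 3 passing probes. ITGA7, named after its value was seen, read -0.02 ± 0.10 (SE, limma adjusted p = 0.972) close to background.

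ITGB4, the β4 partner of α6, read 295.3 and 322.1 in induced ΔNp63α cells and 122.7 and 114.9 in uninduced ΔNp63α cells, the uninduced readings close to background, and a further probe gave 1.05 (adjusted p = 0.0035). ITGA3 read 3559.4 and 3497.3 in induced and 1553.6 and 1829.3 in uninduced ΔNp63α cells, with 0.41 (adjusted p = 0.106) on a dimmer probe. ITGA6 read 192.2 and 207.8 in induced and 137.1 and 148.3 in uninduced cells. Its call was lost without induced ΔNp63α replicate 2 (0.59, limma adjusted p = 0.102) or uninduced ΔNp63α replicate 1 (0.58, adjusted p = 0.125), and its dimmer probe read 0.40 (adjusted p = 0.178).

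ITGB2, the β subunit of leukocyte integrins, read 206.4 and 203.5 in induced and 309.7 and 278.3 in uninduced ΔNp63α cells. In empty-vector cells it read 236.0 and 243.7 with doxycycline and 252.5 and 292.2 without. With doxycycline in both lines the difference was -0.28. Under induction ITGB2 fell by 0.63 ± 0.11 (SE, limma adjusted p = 0.0196). That call was lost without induced ΔNp63α replicate 1 (limma adjusted p = 0.0723) or replicate 2 (0.127) or uninduced ΔNp63α replicate 1 (0.186), while a further ITGB2 probe fell by 0.97 (adjusted p = 0.0017). ITGA11, the remaining collagen-binding α subunit and named after its value was seen, read -0.71 ± 0.16 (limma adjusted p = 0.0643) and passed when 1 probe a gene was tested (adjusted p = 0.0420), with no filter (0.0475), with an intensity trend (0.0412) and without induced ΔNp63α replicate 1 (-0.91, adjusted p = 0.0408). Without induced ΔNp63α replicate 2 it read -0.51 and did not pass. In empty-vector cells doxycycline gave it a reading of -0.34 (adjusted p = 0.986). The difference between these effects, -0.37 ± 0.23, did not pass (limma adjusted p = 0.812).

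The cytoplasmic proteins that bind integrins or belong to focal adhesions gave no call. Of 24 listed adaptors 20 were measured and limma called 0 of them under induction, while 7 had an unadjusted p under 0.05, as did 13.9% of the 12385 genes measured, and the median was 0.00. The smallest p belonged to PARVA, which encodes α-parvin of the complex with integrin-linked kinase. It read 376.7 and 372.7 in induced and 478.9 and 489.8 in uninduced ΔNp63α cells (-0.41 ± 0.09, SE, limma adjusted p = 0.0560), and -0.20 on a dimmer probe. In empty-vector cells PARVA read 396.8 and 400.4 with doxycycline and 398.1 and 388.1 without. The uninduced ΔNp63α arrays were thus the highest, and with doxycycline in both lines the difference was -0.10. Doxycycline effects in the 2 lines differed by -0.44 ± 0.13 (SE), which did not pass (limma adjusted p = 0.345). Under induction PARVA passed without background correction, with no filter and with 1 probe a gene (limma adjusted p between 0.0327 and 0.0425). TNS3, the focal adhesion protein tensin-3, came next at -0.55 ± 0.14 (limma adjusted p = 0.112) and passed without induced ΔNp63α replicate 1 (-0.79, adjusted p = 0.0160), while it read -0.31 without replicate 2 and did not pass.

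The collagen chains, the ligands of α1, α2, α10 and α11, had a median below 0 under induction. Of 20 listed 18 were measured, with 0 rises, 2 falls and 16 genes that did not pass. Of all 12385 genes measured 1.19% rose and 1.03% fell. An unadjusted limma p under 0.05 was found for 12 of the 18, in both directions, and for 13.9% of all genes. The median log2 difference was -0.22, against -0.01 for all genes. The absence of rises depended on the setting: COL4A6, of basement membrane collagen IV, read 0.58 and passed with no filter (limma adjusted p = 0.0403), with 1 probe a gene (0.0379) and without induced ΔNp63α replicate 2 (0.74, adjusted p = 0.0416). COL7A1, the chain of anchoring fibrils, read 0.92 ± 0.31 (SE, limma adjusted p = 0.244) and passed without uninduced ΔNp63α replicate 1 (1.49, adjusted p = 0.0338), and both were named after their values were seen. COL3A1, a chain of fibrillar collagen III, read 122.4 and 109.7 in induced and 178.9 and 163.0 in uninduced ΔNp63α cells (-0.83 ± 0.12, SE, limma adjusted p = 0.0054), with 1 of the 2 induced arrays under background. The COL3A1 call was lost without induced ΔNp63α replicate 2 (limma adjusted p = 0.0529) or uninduced ΔNp63α replicate 1 (0.0733). COL6A1, of the microfibrillar collagen VI, read 208.1 and 211.1 in induced and 315.3 and 269.6 in uninduced cells (-0.58 ± 0.13, limma adjusted p = 0.0484), and its call was lost without each of the 8 arrays in turn (limma adjusted p from 0.0544 to 0.338), as it was without background correction (0.0928), with only the 4 arrays compared (0.0925), with an offset of 16 (0.0551) and with an intensity trend (0.0540).

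The listed ligands of RGD-binding integrins (RGD ligands below) were mixed in their calls. Their largest differences were falls that did not pass, in THBS1 (-1.47 ± 0.37, SE, limma adjusted p = 0.0921) and CCN1 (-1.29 ± 0.30, adjusted p = 0.0628). Both were named after their values were seen, and CCN1 lacks an RGD sequence. THBS1 read 773.0 and 430.0 in induced and 2378.4 and 971.1 in uninduced ΔNp63α cells. The CCN1 readings were 572.8 and 299.7 in induced and 1180.9 and 755.6 in uninduced cells, so replicates of both genes lay far apart. CCN1 passed with an offset of 16 (limma adjusted p = 0.0387), with no filter (0.0457) and with 1 probe a gene (0.0385). With an intensity trend both passed, at 0.0156 for CCN1 and 0.0218 for THBS1. Of 20 listed 12 were measured, of which 1 rose, 1 fell and 10 did not pass. Of all 12385 genes measured 1.19% rose and 1.03% fell. An unadjusted limma p under 0.05 was found for 5 of the 12 and for 13.9% of all genes. The list median was -0.06, against -0.01 for all genes. TNC, tenascin-C of remodelling stroma, read 1348.3 and 1287.6 in induced and 900.0 and 808.5 in uninduced ΔNp63α cells (0.65 ± 0.11, SE, limma adjusted p = 0.0124), with 0.51 on a dimmer probe (adjusted p = 0.174). The TNC call was lost without induced replicate 1 (limma adjusted p = 0.0691) or 2 (0.0620) or uninduced replicate 2 (0.0981) of that line. TGFBI, a TGF-β-induced matrix protein, read 6067.9 and 5953.1 in induced and 10753.9 and 9162.2 in uninduced cells (-0.73 ± 0.11, limma adjusted p = 0.0056) and lost its call without uninduced replicate 1 (-0.61, adjusted p = 0.0717).

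**Figure D3:**
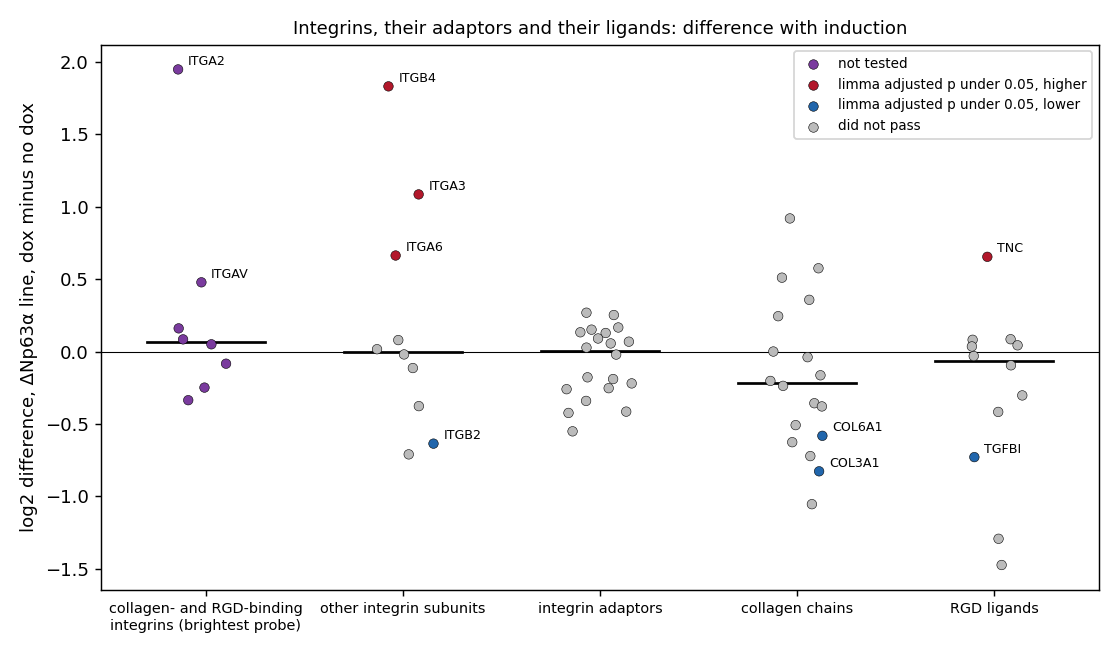
Log2 difference between induced and uninduced ΔNp63α cells for the collagen- and RGD-binding integrins (purple, brightest probe of each gene, not tested) and for 4 lists, with a point per gene and a bar at the list median. ITGA2, ITGB4 and ITGA3 lie highest, the adaptors cluster around 0, and the collagen median is at -0.22. The lowest points are THBS1 (-1.47), CCN1 (-1.29) and COL1A1 (-1.05), none of them called.

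The genes whose pattern was most like ITGA2 were sought over the 8 arrays, among 136 genes whose 4 group means spanned at least 1 log2 unit. The highest Pearson correlations belonged to CPXM1, a carboxypeptidase-like secreted protein (r = 0.985), the neuropeptide galanin GAL (0.984), the pleckstrin family member PLEK2 (0.982), the phospholipase C gene PLCH2 (0.976) and interleukin-1α IL1A (0.974). CPXM1 read 305.6 and 308.6 in induced and 165.7 and 169.3 in uninduced ΔNp63α cells, and 176.6 on both arrays of empty-vector cells with doxycycline. Such correlations rest on 2 high arrays against 6 low ones, with all genes read on the same arrays, and carry no test. Among the integrins themselves, ITGAV gave r = 0.855 with ITGA2 and ITGB3 gave -0.773 over the same 8 arrays.

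**Figure D4:**
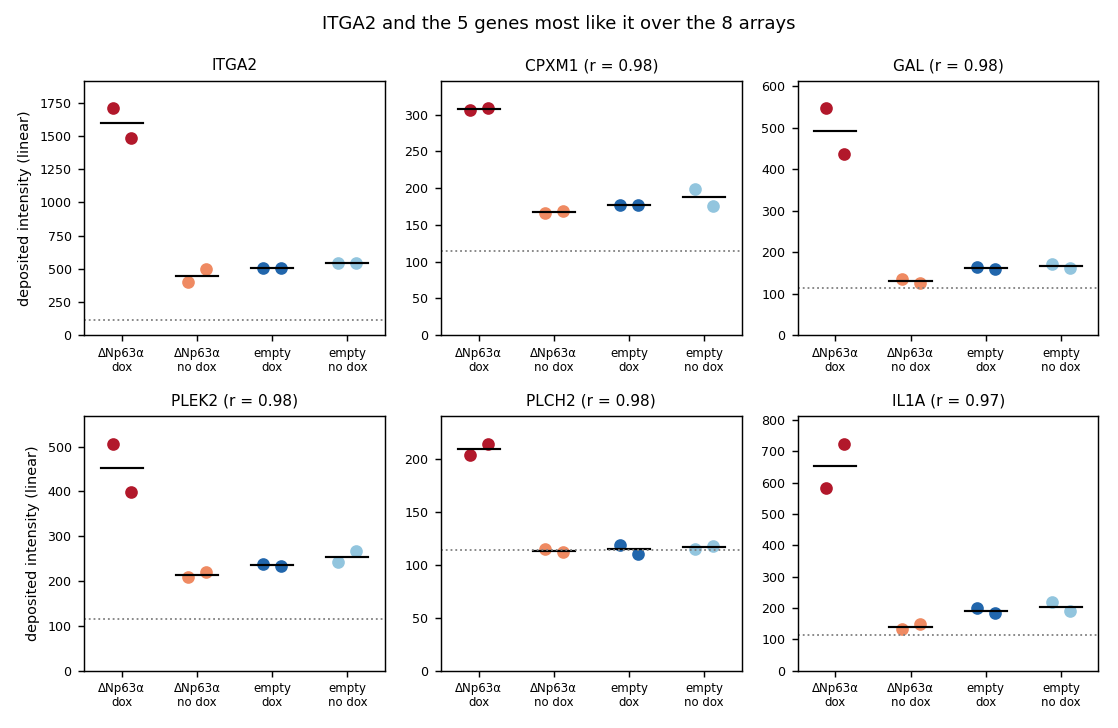
Deposited intensity (linear scale) of ITGA2 and of the 5 genes most correlated with it over the 8 arrays, with points for arrays, bars for group means and a dotted line at 114.4. In each panel both induced ΔNp63α arrays stand above the other 6, and the uninduced ΔNp63α mean is the lowest.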

How the data were processed

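The samples were 8 Illumina bead arrays of biotin-labelled RNA, in 4 groups of 2 taken from the labels. The authors deposited intensity values on a linear scale. The software and normalization they used were not given in the sources used here. Each array had a median of 113.5. At every rank the sorted values of the arrays lay within 0.1750 of their mean. The arrays thus shared a single distribution, the state that quantile normalization leaves. A further deposited table was not used, because its 16 columns of per-sample values match no label. Intensities were background-corrected by normexp with an offset of 50 (limma 3.58.1, R 4.3.3) and put on the log2 scale, which understates changes of dim probes. A probe was kept if it exceeded 114.4 (mode 106.9 plus 1.645 times 4.53, the SD of the values below the mode mirrored around it) on both arrays of a group. The limma model had a mean for each of the 4 groups, all 8 arrays entered it, and p-values were two-sided and adjusted by Benjamini-Hochberg over 23086 probes. A gene outside the 10 integrins was read from its brightest kept probe. The fit was tested on simulated data.

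The integrins and lists were chosen with earlier results of these data known. All integrin probes were named. From each list up to 4 called genes with the smallest p were named, or the 2 with the smallest p where none was called. The alternatives were no background correction, an offset of 16, no filter, 1 probe a gene, an intensity trend, robust eBayes, only the arrays compared, the replicate number as a block, and each array left out. With an array left out the probes kept were the same, and the lone array was assumed to vary like the other groups. The number of arrays limits the precision.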

Additional observations from a re-analysis of the deposited data

Results flagged for a closer look

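ITGA2 and ITGA1 were singled out because doxycycline moved both arrays one way in the ΔNp63α line and both the other way in the empty-vector line. The difference between the effects, ΔNp63α line minus empty vector, was 2.06 ± 0.18 (SE) for ITGA2 and -0.45 ± 0.14 for ITGA1. These differences were not tested, since they contain the comparison from which the integrins were picked, and the empty-vector readings of -0.11 and 0.11 did not pass their own test.

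ITGB4 and ITGA3 were singled out by a test of the difference itself. It was 1.89 for ITGB4 (limma adjusted p = 4.853e-04) and 1.14 for ITGA3 (limma adjusted p = 0.0276). The smallest limma adjusted p of this test over all 23086 probes was 3.454e-04. Of the 12385 genes measured 8.8% had an unadjusted limma p under 0.05, and the share that passed after adjustment is not given here. Further probes, read under induction only, gave 1.05 for ITGB4 and 0.41 for ITGA3 (limma adjusted p = 0.0035 and 0.106). Doxycycline in the empty vector read -0.06 for ITGB4 and -0.05 for ITGA3. The test of the difference did not pass for the other called list genes. Its limma adjusted p was 0.185 for ITGA6, 0.573 for ITGB2, 0.0673 for COL3A1, 0.360 for COL6A1, 0.151 for TNC and 0.0978 for TGFBI. The groups of 2 arrays were too small for a check of single arrays that stand apart.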

How the results depend on the processing

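ITGA2 kept its direction under every alternative listed, from 1.84 without background correction to 2.05 with an offset of 16, and from 1.77 without uninduced ΔNp63α replicate 1 to 2.12 without replicate 2. Under induction 359 probes were called, against 230 without background correction, 201 with only the 4 arrays compared and 124 to 342 with 1 array left out. The uninduced lines gave 6 calls, against 0 without background correction, 15 with an offset of 16, 28 with no filter, 29 with an intensity trend, 25 with only the arrays compared and 0 to 9 with 1 array left out. Doxycycline alone gave 0 under every alternative. Adaptor calls (0) became 1 without background correction, with no filter and with 1 probe a gene. Collagen calls (2) became 1 without background correction, with an offset of 16, with a trend and with only the arrays compared, and 3 with no filter and with 1 probe a gene, the added one (COL4A6) higher. RGD ligand calls (2) became 3 with an offset of 16, with no filter and with 1 probe a gene, the added one (CCN1) lower. They became 4 with a trend, the added ones (CCN1 and THBS1) lower. With 1 array left out the counts were 2 to 4 for the other integrins, 0 to 1 for adaptors, 1 to 2 for collagens (the single call was higher without induced ΔNp63α replicate 2 or uninduced replicate 1) and 1 to 3 for RGD ligands. Where fewer arrays were fitted, the loss of arrays is part of the change. For the others the cause was not tested. With the replicate number as a block there were 602 calls under induction, 47 between the uninduced lines, 2 among adaptors (PARVA, adjusted p = 0.0380, and TNS3, 0.0428), 7 among collagens (2 of them, COL4A6 and COL7A1, higher), 4 among RGD ligands (1 higher), and 5 against 4 among the other integrins, the fifth being ITGA11 (0.0415). Deviations of equally numbered ΔNp63α arrays correlated at 0.42, and from 0.04 to 0.22 for other pairs of groups, and the labels do not say what the number stands for, so the arrays were not taken as paired.

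With 1 array left out, uncalled integrin readings changed sign within these ranges. For doxycycline alone they were -0.15 to 0.15 for ITGA10, -0.024 to 0.13 for ITGA5, -0.04 to 0.18 for ITGAV, -0.10 to 0.44 and -0.053 to 0.15 for ITGB1 (ILMN_1714820 and ILMN_1723467), -0.12 to 0.054 for ITGB3, and -0.021 to 0.073 and -0.16 to 0.14 for ITGB5 (ILMN_1668374 and ILMN_1796755). Between the uninduced lines they were -0.042 to 0.54 for ITGA5, -0.40 to 0.13, -0.19 to 0.014 and -0.23 to 0.18 for ITGB1 (ILMN_1714820, ILMN_1723467 and ILMN_1784454), -0.10 to 0.19 for ITGB3, and -0.024 to 0.062 and -0.048 to 0.025 for ITGB5 (ILMN_1668374 and ILMN_1796755).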
